A study of Mus musculus with 4 samples.

Results

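The keratins that mark the cell lineages of the mouse mammary epithelium were followed across its cell types: Krt5, Krt14, Krt17, Krt16, Krt6a, Krt23, Krt7, Krt8, Krt18 and Krt19. They were chosen by name as the keratins of basal and luminal mammary cells, and these 10 are among the 31053 genes in the count tables. The tables hold 43 other keratin genes. Mammary epithelial cells from the fourth glands of 4 FVB mice, 9 weeks old, were captured in droplets, and a 3′ RNA library was sequenced for each mouse. All 4 mice, the controls included, carried Tfap2c fl/fl and Krt5-CreERT2. Tfap2c encodes the transcription factor AP-2γ, and the series asked what its conditional loss does to mammary stem cells. From 4 weeks of age, 2 mice received corn oil, the vehicle, and 2 received 4-hydroxytamoxifen (4OHT), which activates the recombinase. The labels give the length of the injections in 2 ways, as 5 days and as 1 week. Each library comes from 1 mouse, so the replicates are mice, 2 in each group. Values for single libraries are given throughout in the order corn oil replicate 1, corn oil replicate 2, 4OHT replicate 1 and 4OHT replicate 2.

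Keratins form the intermediate filaments of epithelial cells. A filament is built from pairs of a type I (acidic) and a type II (basic or neutral) keratin, so that the genes of the 2 types are used together in pairs such as KRT14 with KRT5 and KRT18 with KRT8. In the mammary gland the outer, contractile basal (myoepithelial) cells are known for Krt5, Krt14 and Krt17, and the inner luminal cells for Krt8, Krt18, Krt19 and Krt7. Luminal cells are commonly divided into progenitor cells, which can become milk-producing cells, and hormone-sensing cells, which carry the estrogen and progesterone receptors. Krt5 has a further role here: its promoter drives the recombinase, so Tfap2c can be deleted only in cells that use that promoter at the time of treatment and in their descendants.

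The members sit in the 2 keratin gene clusters of the mouse (GRCm38, gene positions of GENCODE M21). On chromosome 11 lie the type I genes Krt23 (99477974 to 99493137), Krt19 (100140810 to 100148665), Krt14 (100203162 to 100207548), Krt16 (100246091 to 100248902) and Krt17 (100256217 to 100261029), all on the minus strand. On chromosome 15 lie the type II genes Krt7 (101411043 to 101430313, plus strand), Krt6a (101689910 to 101694307, minus strand), Krt5 (101707070 to 101712898, minus strand) and Krt8 (101996698 to 102004482, minus strand). Krt18 (102028180 to 102032027, plus strand) is the type I gene that lies among the type II genes of chromosome 15, 23698 bp from Krt8. The filament partners Krt8 and Krt18 are thus neighbours in the genome.

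Promoter sequences are shown for Krt8 and Krt18, the pair on which the treatment comparison turns, for Krt5, which drives the recombinase, and for Krt7, which holds the same motif as Krt18. Each runs 5′ to 3′ on the gene's own strand, from 250 bases before to 50 bases after the RefSeq start site (RefSeq, GRCm38.p6). Capitals mark matches to GCCNNNGGC, an AP-2 binding motif that is its own reverse complement, so that a search of either strand gives the same matches. The 4 windows are chr15:102004293-102004592 on the minus strand (Krt8), chr15:102027966-102028265 on the plus strand (Krt18), chr15:101712856-101713155 on the minus strand (Krt5) and chr15:101412153-101412452 on the plus strand (Krt7).
Krt8: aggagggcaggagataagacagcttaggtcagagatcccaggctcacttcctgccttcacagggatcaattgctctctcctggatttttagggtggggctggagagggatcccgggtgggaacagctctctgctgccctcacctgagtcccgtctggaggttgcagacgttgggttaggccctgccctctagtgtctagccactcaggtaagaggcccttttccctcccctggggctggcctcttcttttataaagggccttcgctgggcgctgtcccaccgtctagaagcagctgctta
Krt18: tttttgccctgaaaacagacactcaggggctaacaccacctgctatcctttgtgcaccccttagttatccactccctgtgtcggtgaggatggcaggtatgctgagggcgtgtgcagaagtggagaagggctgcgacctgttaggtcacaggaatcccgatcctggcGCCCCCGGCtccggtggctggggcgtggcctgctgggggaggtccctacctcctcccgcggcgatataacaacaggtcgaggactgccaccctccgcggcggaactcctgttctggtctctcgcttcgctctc
Krt5: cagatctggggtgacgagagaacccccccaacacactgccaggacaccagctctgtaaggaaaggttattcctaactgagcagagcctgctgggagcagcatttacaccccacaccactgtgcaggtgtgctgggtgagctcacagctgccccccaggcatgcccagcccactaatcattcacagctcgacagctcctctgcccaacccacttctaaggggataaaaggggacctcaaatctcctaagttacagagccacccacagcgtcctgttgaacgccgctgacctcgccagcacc
Krt7: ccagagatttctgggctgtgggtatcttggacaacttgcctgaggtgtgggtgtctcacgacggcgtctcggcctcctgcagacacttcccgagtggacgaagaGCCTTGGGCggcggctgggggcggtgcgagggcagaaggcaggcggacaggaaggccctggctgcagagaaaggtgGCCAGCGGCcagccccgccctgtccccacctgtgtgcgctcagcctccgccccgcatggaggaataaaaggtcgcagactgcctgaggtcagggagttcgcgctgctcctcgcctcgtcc
RefSeq promoters were matched for 6 of the 10 members (Krt5, Krt14, Krt23, Krt7, Krt8 and Krt18), and the motif was found in 2 of the 6. The Krt14 window (chr11:100205981-100206280, minus strand) and the Krt7 window lie inside the GENCODE spans of their genes. For these 2 genes the window thus does not describe the sequence before the GENCODE start. The Krt18 window holds GCCCCCGGC from 83 bases before the start site. The Krt7 window holds GCCTTGGGC and GCCAGCGGC, from 146 and 70 bases before it. Of all 32851 mouse promoters of the same length, 5450 (16.6%) hold at least 1 match. A match describes letters and not a bound site, and a window without one says nothing about the factor.

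The count tables held 18223 cells, from 3546 to 5545 a library, and 17351950 to 22017878 UMIs a library. A UMI (unique molecular identifier) marks 1 captured RNA molecule. Cells with at least 1000 UMIs were sorted into classes by genes other than keratins: basal cells by Acta2, Myl9, Cnn1 and Mylk, progenitor cells by Wfdc18, Csn3, Ltf and Aldh1a3, and hormone-sensing cells by Ly6d, Fxyd2, Gpx3 and Prlr. The rule gave 7487 basal, 4716 progenitor and 1307 hormone-sensing cells, and between 69.9% and 78.6% of a library's cells fell into a class. Genes kept out of the rule followed the class names. Trp63, Oxtr, Tagln and Snai2 summed to between 3082 and 4103 CPM (the UMIs of a gene scaled to the total of its class in a library) in basal cells and to at most 219 CPM in the other classes. Esr1, Pgr, Prom1 and Cited1 summed to between 509 and 942 CPM in hormone-sensing cells and to at most 28.1 CPM elsewhere. Elf5, Kit, Cd14 and Lcn2 summed to between 5487 and 7429 CPM in progenitor cells and to between 136 and 200.1 CPM in hormone-sensing cells, but to between 850 and 2275 CPM in basal cells, nearly all of it Lcn2. Across libraries 155 cell barcodes occurred in more than 1 library, between 18 and 36 for each pair.

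The targeted gene did not separate the treatment labels. Tfap2c was measured at 426, 331, 386 and 426 CPM in basal cells, so that the corn oil and 4OHT values overlap. The log2 difference of 4OHT against corn oil was 0.20 (SE 0.22) in basal cells, 0.10 in progenitor cells and -0.12 in hormone-sensing cells, with adjusted p = 1.00 in each class (edgeR's quasi-likelihood test). The labels do not say which exons are flanked by loxP sites, and a 3′ count can lie outside the deleted part, so this does not measure the deletion. The groups are therefore called the corn oil-labelled and 4OHT-labelled libraries.

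The basal keratins were the most sharply divided of the members. Krt5, Krt14, Krt17 and Krt23 were each higher in basal cells than in either luminal class by a log2 difference between 4.40 and 5.62, and Krt16 was also higher, from a low level. A 3′ library counts molecules by their ends and not by length, so each gene is compared between classes and libraries and not with other genes.

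Krt5, the type II partner of KRT14, stood at 359, 389.6, 327 and 377 CPM in basal cells, and its mean over the 4 libraries was 363 ± 27.4 CPM (SD, n = 4). In progenitor cells it stood at 9.48, 8.76, 13.3 and 14.9 CPM, and in hormone-sensing cells at 8.19, 4.82, 6.07 and 10.3 CPM. These basal values varied less between libraries than those of any other member, and no luminal value came near them. Krt14 stood at 3138, 4621, 3216 and 5049 CPM in basal cells, at 92.8, 114, 172 and 227 CPM in progenitor cells and at 78.2, 112, 98.9 and 117 CPM in hormone-sensing cells. Krt17, a keratin of basal and appendage epithelia, stood at 2979.8, 4035, 2527 and 4483 CPM in basal cells, at 119 to 167 CPM in progenitor cells and at 70.7 to 129 CPM in hormone-sensing cells. For both genes the libraries numbered 2 were the higher ones in basal cells in each treatment group, so the groups overlap.

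Krt23, a type I keratin less studied than the others, stood at 164, 217, 133 and 202 CPM in basal cells. Its luminal values were between 3.12 and 6.80 CPM in progenitor cells and between 3.72 and 6.07 CPM in hormone-sensing cells. Krt23 was as basal in these data as Krt5 and Krt14, with no overlap between any basal and any luminal value. Krt16, a keratin of stressed and fast-renewing epithelia, stood at 26.3, 98.1, 43.6 and 102 CPM in basal cells, at 2.05, 6.83, 9.53 and 5.50 CPM in progenitor cells and at 2.23, 2.68, 3.64 and 4.06 CPM in hormone-sensing cells. Its basal values varied the most between libraries among the members above 20 CPM there, and again the libraries numbered 2 were the high ones.

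The luminal keratins divided the 3 classes less evenly. Krt18 stood at 10002, 7686, 15749.8 and 11269.7 CPM in progenitor cells, at 4301, 3643, 3155 and 3193 CPM in hormone-sensing cells and at 1057, 1078, 2127 and 2394 CPM in basal cells. Its type II partner Krt8 stood at 4695, 2761, 6033 and 4368 CPM in progenitor cells, at 1758, 1052, 1891 and 1699 CPM in hormone-sensing cells and at 845, 1071, 1372 and 1846 CPM in basal cells. Both were highest in progenitor cells, and for Krt8 the basal and hormone-sensing values overlap. Krt19, the smallest keratin and a common luminal marker, had the other order: 1301, 1093, 1781 and 1999 CPM in hormone-sensing cells, 614, 472, 488 and 495 CPM in progenitor cells and 133, 180.2, 160.1 and 194 CPM in basal cells. Krt7, a type II keratin of simple epithelia, stood at 513, 472, 492 and 734 CPM in hormone-sensing cells, at 291, 327, 610.2 and 299.8 CPM in progenitor cells and at 30.1, 47.7, 46.7 and 46.0 CPM in basal cells. The 2 luminal classes overlap for Krt7, through the high progenitor value of 4OHT replicate 1.

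**Figure D1:**
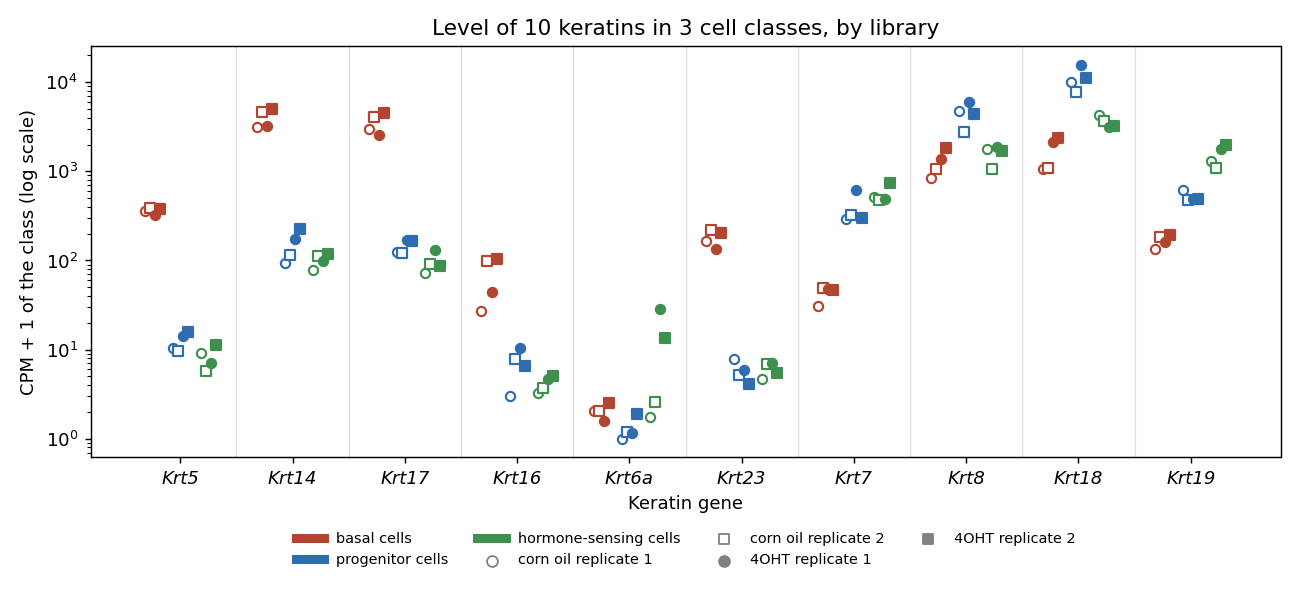
Level of each of the 10 keratins in the 3 classes; the log-scaled axis shows CPM + 1, colours mark the class and marker shapes the library. The basal points of Krt5, Krt14, Krt17 and Krt23 lie far above the luminal points, Krt18 and Krt8 are highest in progenitor cells, and Krt19 is highest in hormone-sensing cells.

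The differences between classes were tested over 11143 genes with edgeR's quasi-likelihood test on summed UMIs, with library as a block and a threshold of 0.05 on the Benjamini-Hochberg adjusted p. Krt6a did not pass the filter on low counts, which left 9 members. Of these, 5 were higher and 4 lower in basal than in progenitor cells, where 29.8% of all genes tested were called higher and 26.7% lower. Against hormone-sensing cells 5 were higher in basal cells and 3 lower, with 31.7% and 27.4% of all genes called. Between the luminal classes 6 were higher in progenitor cells and 1 lower, with 22.8% and 21.5% of all genes called. Members were picked as lineage keratins, so their share of calls is no measure of anything beyond that choice, and the sizes of the differences are what the data add.

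Between basal and progenitor cells the log2 difference was 4.99 (SE 0.23) for Krt23, 4.76 (SE 0.18) for Krt5, 4.54 (SE 0.20) for Krt14, 4.40 (SE 0.22) for Krt17 and 3.21 (SE 0.27) for Krt16. The luminal members were lower in basal cells by smaller amounts, -3.36 (SE 0.21) for Krt7, -2.99 (SE 0.25) for Krt18, -2.0 (SE 0.19) for Krt8 and -1.86 (SE 0.17) for Krt19. The largest adjusted p among these 9 values was 4.7e-07 (edgeR), for Krt8. The direction was the same in all 4 mice for every member.

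Against hormone-sensing cells the basal members differed more, with log2 differences of 5.62 (SE 0.21) for Krt5, 5.28 (SE 0.20) for Krt14, 5.21 (SE 0.23) for Krt17, 5.12 (SE 0.27) for Krt23 and 4.40 (SE 0.36) for Krt16. Krt7 (-3.73, SE 0.21) and Krt19 (-3.20, SE 0.17) were the members furthest below hormone-sensing cells in basal cells, and Krt18 was lower by a smaller amount (-1.23, SE 0.24, edgeR adjusted p = 0.000406). Krt8 did not pass the test in this comparison (-0.33, SE 0.19, edgeR adjusted p = 0.142). Without 4OHT replicate 2 the Krt8 difference was -0.57 and passed (edgeR adjusted p = 0.030), and with no filter on low counts it passed at -0.29 (edgeR adjusted p = 0.0448). Without corn oil replicate 1 it was -0.10 (edgeR adjusted p = 0.671).

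Between the luminal classes Krt18 (1.76, SE 0.24) and Krt8 (1.67, SE 0.19) were higher in progenitor cells, and Krt19 (-1.34, SE 0.16) was higher in hormone-sensing cells. Krt7 did not pass (-0.37, SE 0.19, edgeR adjusted p = 0.132). Its difference passed without 4OHT replicate 1 (-0.68, edgeR adjusted p = 0.00585) and under the stricter class rule (-0.58, edgeR adjusted p = 0.0242), and was -0.16 without 4OHT replicate 2 (edgeR adjusted p = 0.613). The basal keratins Krt5 (0.86, SE 0.23), Krt17 (0.82, SE 0.20) and Krt14 (0.74, SE 0.18) were also called higher in progenitor than in hormone-sensing cells. By library the Krt14 difference was log2 0.25, 0.02, 0.79 and 0.95, and without library as a block it did not pass (edgeR adjusted p = 0.060). Without the progenitor cells that held 20 or more Krt14 UMIs, progenitor Krt14 stood at 78.9, 85.2, 104 and 111 CPM. Leaving out cells by their own Krt14 count lowers the level by construction. Hormone-sensing cells were not trimmed in this way, so the trimmed values cannot be compared with theirs. Doublets were kept, so cells classed as endothelial are not shown to be free of epithelial RNA. In them Krt14 stood at 204 CPM in the 8 cells of corn oil replicate 1 and at 97.7, 84.6 and 78.5 CPM in the other libraries, and Krt17 at 87.5, 63.2, 92.3 and 78.5 CPM. Progenitor values were above these in every library for Krt17 and in all but corn oil replicate 1 for Krt14, while hormone-sensing values lay on both sides. The call for Krt16 (1.19, SE 0.44, edgeR adjusted p = 0.0395) was lost when any single library was left out (log2 0.92 to 1.33), and Krt23 did not pass (0.14, SE 0.34).

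**Figure D2:**
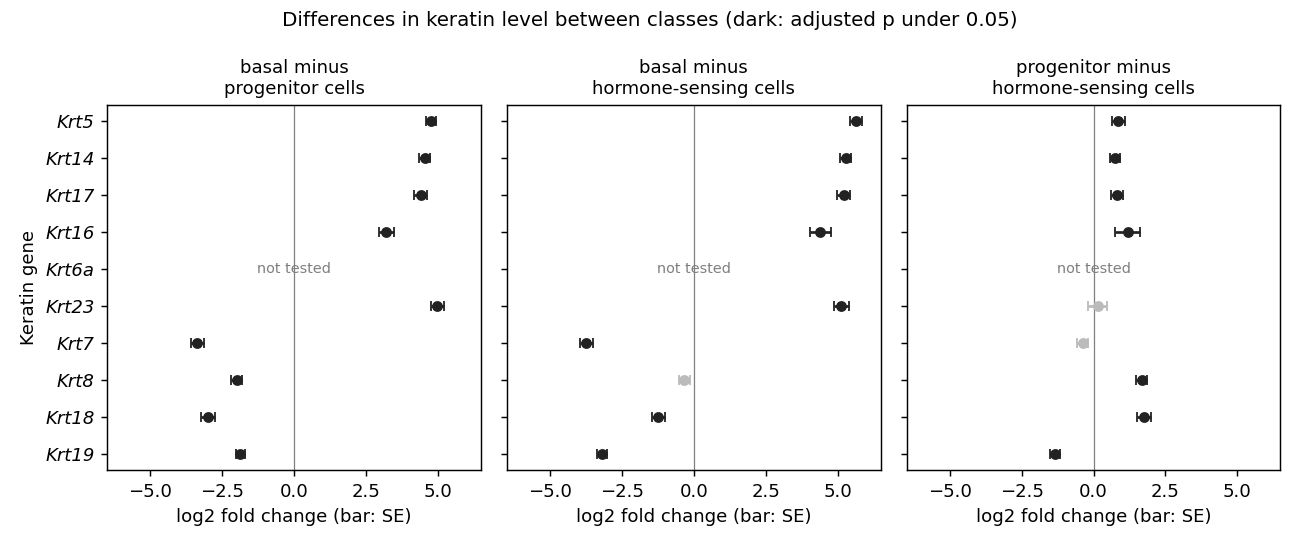
Fitted log2 difference of each tested keratin for the 3 pairs of classes, with bars of 1 standard error; dark points passed the adjusted p threshold of 0.05. Krt5, Krt14, Krt17 and Krt23 sit between 4.40 and 5.62 in both comparisons with basal cells, and Krt8 at -0.33 is the member that did not pass between basal and hormone-sensing cells.

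To compare shares of cells with at least 1 UMI, every cell was thinned to 2000 UMIs and shallower cells were left out. Krt14 was detected in 85.7%, 87.3%, 85.8% and 90.2% of basal cells, and in 93.3% to 95.9% before thinning. Krt17 was detected in 87.8%, 90.1%, 92.2% and 94.9% of thinned basal cells. Krt5 was detected in 41.4%, 44.1%, 39.8% and 45.3% of them, and in 55.9% to 64.2% before thinning, with a mean of 0.68 to 0.78 UMIs a cell. The Krt5 share is that of a gene with less than 1 UMI in the average thinned cell, and a cell without a UMI is not shown to lack the transcript. In progenitor cells Krt5 was detected in 1.26% to 3.23% and in hormone-sensing cells in 0.545% to 2.33%, against 0% to 4.35% of endothelial cells. The luminal shares of Krt14 (13.1% to 17.4%) and Krt17 (9.26% to 15.6%) are likewise close to the endothelial shares of 15.1% to 25% and 0% to 21.4%. By level, progenitor Krt17 was above endothelial Krt17 in every library, and the source of these luminal UMIs was not tested. The endothelial shares rest on 8, 46, 28 and 53 cells, and the 0 for Krt5 in the 8 cells of corn oil replicate 1 allows a share of up to 36.9% (exact Clopper-Pearson interval, counting error only).

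The luminal keratins Krt8 and Krt18 were detected in larger shares of basal than of endothelial cells. Krt8 was detected in 57.2%, 62.1%, 72.3% and 74.8% of thinned basal cells, and Krt18 in 63.5%, 57.5%, 80.4% and 71.8%. Before thinning the shares were 82.5%, 74.7%, 86.7% and 80.5% for Krt8 and 87.6%, 70.6%, 92.2% and 79.3% for Krt18. In endothelial cells of the same libraries the thinned shares were 37.5%, 6.52%, 28.6% and 7.55% for Krt8 and 50%, 19.6%, 50% and 17% for Krt18, with median depths of 4356, 2469.5, 2688.5 and 1953 UMIs against 5574, 3345, 4755.5 and 3083 UMIs in basal cells. The basal shares were the higher ones in every library. The endothelial levels of Krt18 were 109, 323 and 116 CPM outside corn oil replicate 1, whose 8 endothelial cells gave 3763 CPM, mostly from 1 cell. Those of Krt8 were 46.0, 115 and 48.6 CPM outside corn oil replicate 1, and 1575 CPM in it. In corn oil replicate 1 the endothelial levels were thus above the basal ones, which were 1057 CPM for Krt18 and 845 CPM for Krt8.

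Basal cells without a single UMI of the progenitor or hormone-sensing rule genes, 48.9% to 67.3% of the basal cells of a library, gave Krt18 levels of 1031, 1004, 1912 and 2248 CPM and Krt8 levels of 822, 1038, 1296 and 1854 CPM. These values are close to those of all basal cells. The class rule itself limits these UMIs, so the subset is a tighter selection by the same genes and does not measure free RNA, whose part in the basal values was not tested.

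**Figure D3:**
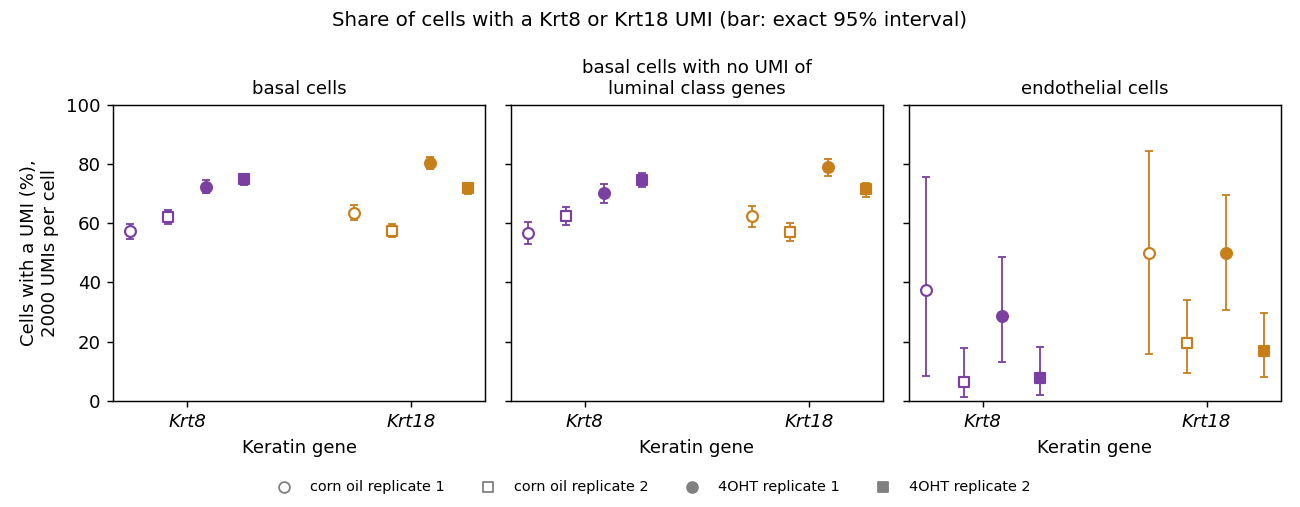
Share of cells with a Krt8 or Krt18 UMI after thinning to 2000 UMIs, by library, in basal cells, in basal cells with no UMI of the luminal rule genes, and in endothelial cells. Shares lie between 56.6% and 80.4% over both sets of basal cells and above the endothelial share of the same library, which is highest in the 8 cells of corn oil replicate 1 and the 28 cells of 4OHT replicate 1.

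A UMI of a basal keratin (Krt5, Krt14 or Krt17) together with a UMI of Krt8 or Krt18 was found in 78.5%, 76.6%, 90.3% and 87.1% of basal cells. The same held for 24.6%, 23.4%, 26.3% and 26.4% of progenitor cells and for 21.6%, 22.1%, 26.1% and 27.6% of hormone-sensing cells, and in endothelial cells for 12.5%, 8.70%, 25% and 7.55%. A basal keratin UMI of any of the 3 genes was itself found in 24.1% to 26.8% of progenitor cells and 23.5% to 28% of hormone-sensing cells, against 25% to 39.3% of endothelial cells. Joint detection was thus the rule in basal cells. In luminal cells the share with a basal keratin was close to or below the endothelial one. Most basal cells carried few luminal keratin molecules. Krt18 reached 10 or more UMIs in 2.83%, 4.40%, 9.19% and 14.5% of thinned basal cells, while its median in progenitor cells was 10, 7, 17 and 14 UMIs.

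Within basal cells, the detection of Krt18 with Krt8, of Krt17 with Krt14 and of Krt14 with Krt5 was compared. Among basal cells with a Krt8 UMI, 69.3%, 66.3%, 84.5% and 78.5% had a Krt18 UMI, against 55.9%, 43.1%, 70.0% and 52.0% of those without. Among basal cells with Krt14, 92.1%, 92.7%, 93.5% and 96.4% had Krt17, against 62.3%, 72.6%, 84.3% and 81.1% of those without. Krt14 was found in 89.8% to 93.0% of basal cells with Krt5 and in 82.2% to 88.0% of those without. These are descriptions within single libraries, whose cells share a mouse and a class.

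Krt23 did not follow Krt14 from cell to cell. Among basal cells with Krt14, 16.3%, 20.7%, 14% and 18.6% had Krt23, against 16%, 24.7%, 18.8% and 31.6% of those without, so the share was the lower one in 3 of the 4 libraries. The genes thus share their class, while cells with Krt14 held Krt23 no more often than cells without it in those 3 libraries. In hormone-sensing cells Krt19 was found in 82.9%, 82.6%, 86.4% and 87.2% of cells with Krt7 and in 58.1%, 47.2%, 53.9% and 60.4% of those without. In progenitor cells the same pair gave 45.1%, 51.6%, 36.7% and 46.0% against 38.5%, 33.8%, 36.3% and 39.0%, a smaller gap in each library.

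**Figure D4:**
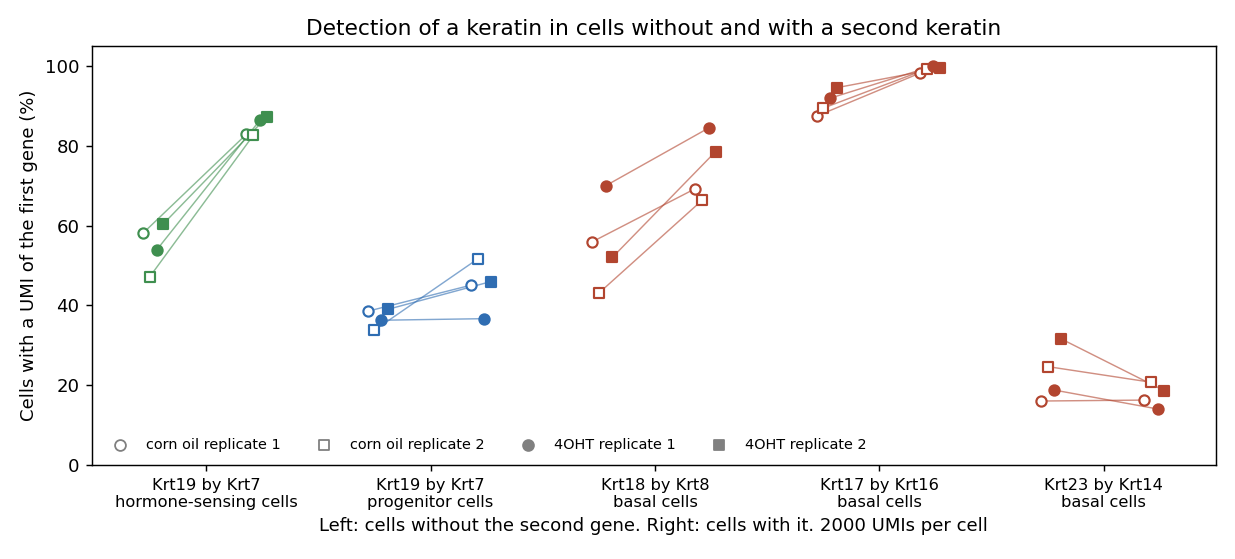
Share of cells with a UMI of the second gene of a pair among cells without and with a UMI of the first, in each library after thinning to 2000 UMIs. The lines slope upward for Krt8 with Krt18 and Krt16 with Krt17 in basal cells. They also slope upward for Krt7 with Krt19 in hormone-sensing cells and, less steeply, in progenitor cells. For Krt14 with Krt23 in basal cells they slope downward in 3 of 4 libraries.

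Krt16 was held by a small share of basal cells, in which Krt14 and Krt17 were also high. It was detected in 55, 126, 56 and 177 thinned basal cells, which are 3.71%, 7.20%, 3.48% and 8.15% of the class, with at most 5, 29, 17 and 26 UMIs in a cell. The mean Krt14 count was 18.2, 22.2, 22.3 and 20.7 UMIs in these cells and 6.91, 9.24, 6.80 and 9.75 UMIs in the other basal cells. The mean Krt17 count was 10.6, 14.9, 12 and 15.6 UMIs in them and 5.94, 7.96, 5.16 and 8.75 UMIs in the others. Both were higher in the Krt16-positive cells of every library. The luminal keratins were higher there too: the mean Krt8 count was 2.65, 2.83, 3.55 and 5.25 UMIs against 1.5, 2.02, 2.55 and 3.71 UMIs, and the mean Krt18 count 2.69, 2.66, 6.5 and 6.82 UMIs against 1.95, 1.98, 3.82 and 4.62 UMIs. Krt5 was not higher in every library, with means of 0.636, 0.937, 0.857 and 0.706 UMIs in Krt16-positive cells and 0.706, 0.772, 0.677 and 0.770 UMIs in the others. Krt23 was detected in 3.64%, 20.6%, 5.36% and 18.6% of Krt16-positive cells and in 16.7%, 21.3%, 15% and 20% of the others, so its share was the lower one in each library. The last 500 bases of the Krt16 transcript share 33.3% of their 30-base words with other genes, most with Gm11597, and those of Krt14 and Krt17 share 17.6% with each other, so how counts were divided among these copies is uncertain.

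Krt6a, a keratin of wounded and activated epithelia, was nearly absent from basal and progenitor cells. In basal cells it stood at 1.02, 1.05, 0.589 and 1.51 CPM, and in progenitor cells at 0, 0.175, 0.151 and 0.917 CPM, where a count of 0 allows up to 0.474 CPM. In hormone-sensing cells it stood at 0.744, 1.61, 27.3 and 12.6 CPM. The 4OHT-labelled libraries were the high ones there, through 5 cells with 45 UMIs and 13 cells with 34 UMIs, against 1 cell with 1 UMI and 2 cells with 3 UMIs in the corn oil-labelled ones. A single cell of 4OHT replicate 1 held 31 of its 45 UMIs.

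Without thinning, Krt6a-positive cells numbered 1 of 162, 2 of 382, 5 of 266 and 13 of 497 hormone-sensing cells. After thinning, the mean share was 0.136% in the corn oil-labelled libraries and 1.32% in the 4OHT-labelled ones. The unthinned Krt6a-positive cells were the deeper ones, with medians of 10072, 5880.5, 10243 and 6452 UMIs. The medians of the other hormone-sensing cells were 8034, 4506.5, 5930 and 4845 UMIs. In the Krt6a-positive cells Krt8 summed to 2184, 3996, 10120.4 and 3554 CPM, against 1755, 1034, 1652 and 1631 CPM in the other hormone-sensing cells. Krt19 summed to 2383, 7227, 6438 and 3291 CPM in them and to 1293, 1054, 1646 and 1952 CPM in the others. Krt7 summed to 596, 1956, 2089 and 1283 CPM in them and to 512, 463, 445 and 714 CPM in the others. These 3 were higher in the Krt6a-positive cells of each library, which rest on 1 to 13 cells a library. Krt18 was not: it summed to 1986, 6207, 6697 and 3428 CPM in them and to 4319, 3627, 3052 and 3185 CPM in the others. Hormone-sensing cells also held the fibroblast marker Dcn at 267, 311, 1371 and 240.4 CPM, with the collagen Col1a1 at 0.7, 26.8, 13.4 and 1.1 CPM, and its part in these values was not tested. The epidermal keratinocyte marker Krtdap stood at 0.0, 11.8, 0.6 and 2.6 CPM in them. The keratins Krt4 (7.50 CPM) and Krt79 (3.88 CPM) had their highest class mean there, while Sbsn, a marker of the same list as Krtdap, was highest in progenitor cells. Whether epidermal cells in this class carried Krt6a was not tested.

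The treatment labels moved no member past the threshold in any class. With edgeR's quasi-likelihood test of 4OHT against corn oil, 0 of 9 members and 0% of all genes tested were called in basal cells (11180 genes), in progenitor cells (10042 genes) and in hormone-sensing cells (7924 genes). At an unadjusted p under 0.05 the counts were 408, 202 and 182 genes, and members among them were Krt8 and Krt18 in basal cells, Krt14 in progenitor cells and Krt6a and Krt19 in hormone-sensing cells. Krt6a reached this test only through the 4OHT-labelled libraries where it was high, so its p lends no support. DESeq2's Wald test called 37, 4 and 3 genes in the 3 classes, with Krt18 in basal cells the only member (adjusted p = 0.0228).

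Krt18 in basal cells was the member with the smallest p of the 9 in that class. Its values of 1057 and 1078 CPM in the corn oil-labelled libraries and 2127 and 2394 CPM in the 4OHT-labelled ones do not overlap, and the group means were 1068 ± 14.8 and 2260.1 ± 189 CPM (SD, n = 2 each). The log2 difference was 1.17 (SE 0.23, unadjusted p = 0.00238, edgeR adjusted p = 0.938). Krt8 in basal cells had group means of 958 ± 160 and 1609 ± 335 CPM (SD, n = 2 each), also without overlap, and a log2 difference of 0.84 (SE 0.30, unadjusted p = 0.0327, edgeR adjusted p = 1.00). Both 4OHT-labelled libraries were above both corn oil-labelled ones for 2 of 9 members in basal cells, where 9.7% of all genes lay above in this way and 19.6% below, and no member lay below. In basal cells with no UMI of the luminal rule genes the log2 differences were 1.11 (SE 0.25) for Krt18 and 0.85 (SE 0.32) for Krt8.

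Whether Krt18 passed the threshold depended on the fit. It passed with no filter on low counts (edgeR adjusted p = 0.000339), and without 4OHT replicate 1 (log2 1.35, edgeR adjusted p = 0.0332), a fit that assumes the lone 4OHT mouse varies like the corn oil mice. The log2 difference stayed between 0.97 and 1.35 over 11 alternatives. The share of thinned basal cells with a UMI was higher in the 4OHT-labelled libraries by 15.6 percentage points for Krt18 and by 13.9 for Krt8, with an exact two-sided permutation p of 0.333 for each, the smallest that 2 libraries against 2 can give. The other 7 basal values moved by log2 -0.09 to 0.33, with overlapping groups for each.

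**Figure D5:**
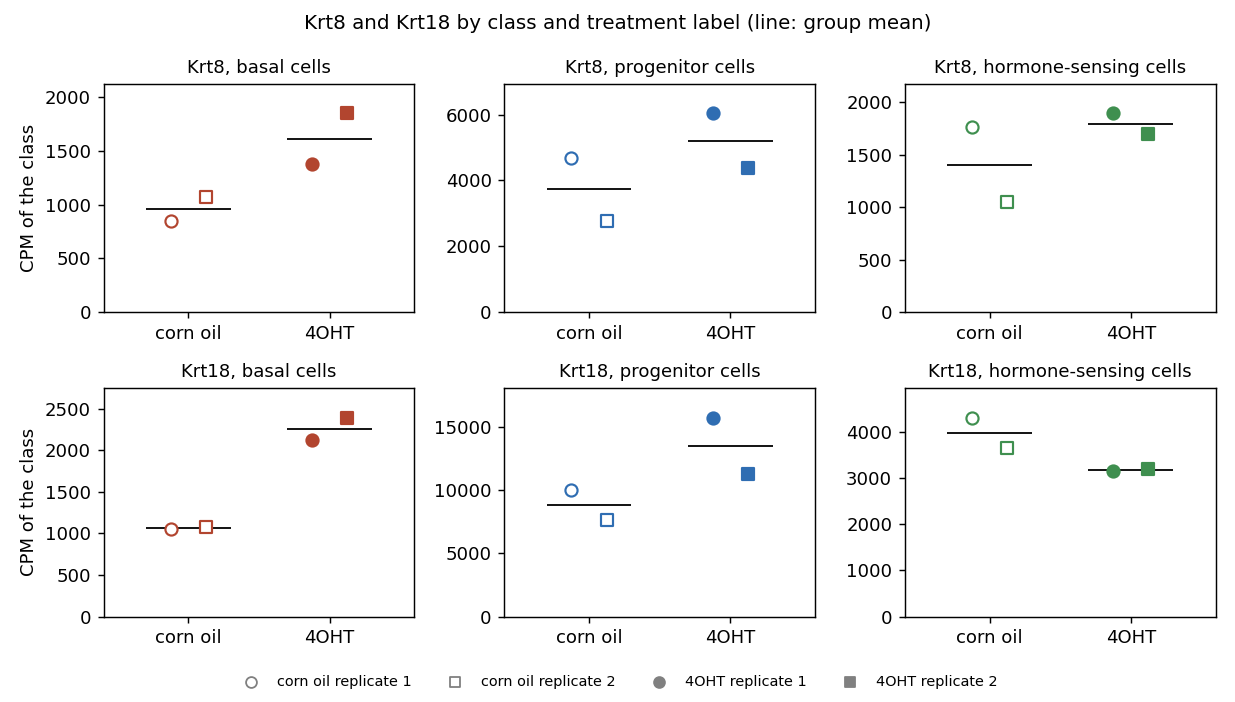
Krt8 and Krt18 levels in CPM by class and treatment label, with a point for each library and a line at the group mean. The basal points of the 4OHT-labelled libraries lie above those of the corn oil-labelled ones for both genes, while the hormone-sensing Krt18 points of the 4OHT-labelled libraries (3155 and 3193 CPM) lie below the corn oil-labelled ones (3643 and 4301 CPM).

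In progenitor cells 4 of 9 members had both 4OHT-labelled libraries above both others (Krt5, Krt14, Krt17 and Krt18) and none below, where 7.23% of all genes lay above and 18.4% below. Krt18 had a log2 difference of 0.70 (SE 0.33), and Krt14 of 1.07 (SE 0.30, unadjusted p = 0.00578), and both had an edgeR adjusted p of 1.00. The Krt14 difference came in part from few cells. Cells with 20 or more Krt14 UMIs numbered 3, 4, 11 and 17 and held 15.3%, 25.7%, 40.0% and 51.9% of the Krt14 UMIs of the class. Without them Krt14 stood at 78.9, 85.2, 104 and 111 CPM, so the trimmed groups still did not overlap. These cells were picked by their own Krt14 count, which lowers the level by construction. The cells with 20 or more Krt14 UMIs also held Krt17 at 2612 to 4056 CPM, within the range of basal cells, beside Krt18 at 2235 to 15392 CPM. Krt5 stood at 225 to 366 CPM in them, below the basal value of the same library in each case. The log2 difference was 0.63 under the stricter class rule, 0.75 without 4OHT replicate 2 and 1.23 with low-quality cells and the highest doublet scores left out, and it did not pass in any of these fits.

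In hormone-sensing cells 2 of 9 members tested lay above (Krt6a and Krt19) and 1 below (Krt18), where 15.4% of all genes lay above and 13.4% below. Krt19 had a log2 difference of 0.64 (SE 0.20, unadjusted p = 0.0151) and Krt18 of -0.35 (SE 0.18, unadjusted p = 0.0899), with an edgeR adjusted p of 1.00 for each. Krt6a had a log2 difference of 3.88 (SE 0.67), but it passed the filter on low counts through the 4OHT-labelled libraries alone. Being high there was thus a condition of its test, so its p and its place among the members above lend no support. The Krt6a calls with either corn oil library left out carry the same limit and rest on the few cells described. These fits also assume that the lone corn oil mouse varies like the 4OHT mice.

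The difference of the treatment effect between classes was tested as an interaction over 12079 genes, with library as a block. No member was called for any pair of classes. Of all genes 0% were called between basal and progenitor cells and 0% between progenitor and hormone-sensing cells, and 0.00828%, a single gene, between basal and hormone-sensing cells. That gene was Cldn4, a tight junction gene (log2 1.61, edgeR adjusted p = 0.0295), which is named after its value was seen. Krt18 had the member value with the smallest p, a log2 difference of effect of 1.48 (SE 0.23, unadjusted p = 1.63e-05, edgeR adjusted p = 0.0738) between basal and hormone-sensing cells. Between progenitor and hormone-sensing cells its value was 1.05 (SE 0.23, edgeR adjusted p = 0.776) and between basal and progenitor cells 0.44 (SE 0.23, edgeR adjusted p = 1.00).

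Outside the members, the keratin family was little used in these cells. Of the 43 other keratins 13 had no UMI in any class sum and 25 had between 1 and 99 UMIs. Krt15, a type I keratin of basal epithelia, alone reached a mean of 20 CPM, with class means of 95.5 CPM in basal, 5.27 CPM in progenitor and 6.94 CPM in hormone-sensing cells. It was higher in basal than in progenitor cells by log2 3.80 (SE 0.35) and than in hormone-sensing cells by 3.65 (SE 0.40). Of the 8 other keratins tested, 5 were higher and 1 lower in basal than in progenitor cells, where 29.8% and 26.7% of all genes were. Against hormone-sensing cells 3 were higher and 2 lower in basal cells, where 31.7% and 27.4% of all genes were. The counts of this second comparison are near those shares and are no result about these keratins.

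Genes of the structures that keratin filaments attach to were read from lists. Hemidesmosomes anchor filaments to the basement membrane, and all 6 of their genes were higher in basal than in progenitor cells, where 29.8% of all genes were. Their median log2 difference was 1.86, against 0.04 over all genes. Itga6, the α6 integrin, differed by 2.34 and Dst, the linker dystonin, by 1.97. Against hormone-sensing cells 5 of 6 were higher in basal cells and 1 lower, where 31.7% and 27.4% of all genes were. Itga6 differed by 2.08, Cd151 by 1.07 and Plec, the linker plectin, by -0.55. Between the luminal classes 3 of 6 were lower in progenitor cells and none higher, where 21.5% and 22.8% of all genes were. Plec differed by -1.63 and Dst by -1.19.

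Desmosomes join filaments between neighbouring cells, and their genes were called in both directions. Of 8 desmosome genes tested 3 were higher and 2 lower in basal than in progenitor cells, with Perp at 2.19, Dsp at 1.79 and the cadherin Dsg2 at -1.31. Over all genes 29.8% were higher and 26.7% lower in that comparison, so these counts are no result about the list. Against hormone-sensing cells 4 were higher and 3 lower in basal cells, where 31.7% and 27.4% of all genes were. Between the luminal classes, where 22.8% of all genes were higher and 21.5% lower, 4 were higher and 2 lower in progenitor cells, with Dsg2 at 0.85, the catenin Jup at 0.62 and Dsp at -0.58. A last list held linker and other filament genes together with other genes such as Trp63, the transcription factor of basal epithelia. Of its 7 genes tested, 4 were higher and 3 lower in basal than in progenitor cells. Trp63 (4.67) and Vim (4.12), the filament protein vimentin, were the highest. Trp63 also served to check the basal class, so its value says nothing about filament genes. Of these lists no gene was called for the treatment labels in any class.

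The genes whose levels followed a member most closely were found among 4202 genes over the 12 sums of class and library, by the root mean square difference of centred log2 CPM. Cxcl14, a chemokine, was the closest to Krt14 (0.29) and to Krt5 (0.31), with Kctd4 the next for Krt5 (0.36) and Ripor2 for Krt14 (0.43), and Krt17 was closest to Ripor2 (0.40) and Cxcl14 (0.43). Krt23 lay closest to Igfbp2 (0.44) and to Myh11 (0.45), the smooth muscle myosin. Klf6 (0.23) and Psmd8 (0.36) were closest to Krt8, and Fbxo6 (0.24) and Tmem106c (0.26) to Krt19. Krt7 had Tmc4 (0.36) and Pkig (0.40), and Krt18 had no gene nearer than Cyb5a (0.52) and Asrgl1 (0.53). Krt16 with Ankrd9 (0.62) and Espn (0.67) and Krt6a with Stc2 (1.2) and Hist1h2bc (1.21) had no close match. The sums share their libraries and classes, so these distances are descriptions.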

How the data were processed

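The deposited values are counts of UMIs for each gene in each cell, not normalized; the authors used Cell Ranger 3.0.1 and mm10 (GRCm38.91), per the labels' design text and the submitters' processing notes; intron and cell-calling settings are not given in the sources used here. The members, the gene lists and the tests were chosen with earlier results of these data known. Cells with at least 1000 UMIs were classed by sums of 4 rule genes, where a class needed a sum of at least 4 that was above 2 times each other sum. Doublets were kept in the main values; Scrublet (scanpy 1.11.5) at its automatic threshold marked 0.0721% to 0.499% of cells and so had not worked. An alternative left out the highest scores (0.8% per 1000 cells), cells under 500 genes and cells over 10% mitochondrial counts. Counts were summed per class and library and tested with edgeR 4.0.16 (R 4.3.3; TMM factors, filterByExpr, quasi-likelihood F-test, Benjamini-Hochberg over all genes, threshold 0.05), with DESeq2 1.42.0 as an alternative. Class comparisons and interactions had library as a block, and treatment comparisons had none. The test code was run on simulated counts with known changes, and the outcome is not given here. All sums were drawn there from a shared mean profile, so the power of the treatment comparisons in the real data is not known from it. Shares used cells thinned to 2000 UMIs (alternative 1000), and intervals are exact Clopper-Pearson at 95%. Python 3.11.15, numpy 2.4.6, scipy 1.17.1 and pandas 2.3.3 were used. All 10 members were named in each comparison, with the 2 largest called differences in each direction of each list among genes averaging 20 CPM or more, and the 2 closest profiles of each member. The alternatives were another normalization, no filter, a stricter class rule (sum of at least 8, above 4 times each other), each library left out, the replicate number as a block, and, added after the data were seen, cells with no UMI of the other classes' rule genes. Gene models shared between near copies and overlapping genes may have divided counts, and strand is not given in the sources used here.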

Additional observations from a re-analysis of the deposited data

Results flagged for a closer look

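The Krt18 values of the treatment labels lay apart in opposite directions in different classes, but Krt18 passed the threshold in no class in the main edgeR fits. The ratio of 4OHT-labelled to corn oil-labelled CPM was 2.12 in basal cells and 1.53 in progenitor cells, with both 4OHT-labelled libraries above both others. Of all genes tested 9.7% lay above in this way in basal cells and 7.23% in progenitor cells. In hormone-sensing cells the ratio was 0.799, with both 4OHT-labelled libraries below both others, as for 13.4% of all genes tested there. The difference of effect was tested as an interaction in edgeR: between basal and hormone-sensing cells the adjusted p was 0.0738, and between progenitor and hormone-sensing cells it was 0.776, so neither passed the threshold. The log2 difference of effect between basal and hormone-sensing cells was between 1.33 and 1.72 over 9 alternatives, with an adjusted p from 5.1e-13 to 0.267.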

How the results depend on the processing

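For single members, 281 of 297 alternative values of the class differences kept their direction and their side of the threshold, 11 lost the call, 4 gained it and 1 changed sign: Krt23 between progenitor and hormone-sensing cells was 0.14, and ranged from -0.18 (without corn oil replicate 1) to 0.35 with a library left out, and passed the threshold in none of these fits. For the 9 tested treatment differences of single members whose groups do not overlap, 93 of 101 alternative values kept their side and 8 gained a call. In basal cells 1 member was called with no filter, 2 with the replicate block (Krt18, adjusted p = 0.0193, and Krt8, adjusted p = 0.0389, edgeR), 1 with DESeq2 and 0 to 1 with a library left out. In hormone-sensing cells 1 member was called with no filter and 0 to 1 with a library left out. For the interaction, 2 members were called between basal and hormone-sensing cells with no filter, 1 under the stricter class rule (Krt18, adjusted p = 0.0339) and 1 in cells with no UMI of the other classes' rule genes (Krt18, adjusted p = 0.00973), and 1 between progenitor and hormone-sensing cells with no filter. The share of basal cells with both keratin sets was 65.9% at 1000 UMIs, against 83.1% at 2000, and thinning to fewer UMIs lowers such a share by its construction. Without 1 library an arm holds a single mouse, which the fit assumes to vary like the other group. The cause of the other changes was not tested.

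Counts of all genes called moved in the same way. In basal cells 0 became 129 with no filter, 67 with the replicate block, 37 with DESeq2 and 0 to 70 with a library left out (70 without 4OHT replicate 1 and 16 without 4OHT replicate 2). In progenitor cells it became 37, 4 with DESeq2 and 0 to 11 with a library left out. In hormone-sensing cells it became 75 with no filter, 3 with DESeq2, 1 in cells with no UMI of other rule genes, 0 to 83 with a library left out and 2 with the replicate numbers crossed. For the interactions, basal against progenitor gave 26 with no filter, 1 under the stricter rule, 1 in cells with no other rule gene and 0 to 2 with a library left out. Basal against hormone-sensing gave 89, 3, 17 and 0 to 13 in that order, and 0 with DESeq2 size factors. Progenitor against hormone-sensing gave 51 with no filter, 7 in cells with no other rule gene and 0 to 14 with a library left out. The labels do not say that a replicate number marks a shared litter or day; deviations of same-numbered libraries correlated at 0.591 in basal, 0.245 in progenitor and -0.122 in hormone-sensing cells. Krt6a, with 83 UMIs in hormone-sensing cells, and Krt16 in luminal cells are limited by depth.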

Other observations

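Cells left without a class numbered 714, 750, 1275 and 1072 in the order of the libraries above, with median depths of 4367.5, 2790, 3347 and 2335 UMIs, below those of basal cells. The sum of Krt5, Krt14 and Krt17 was more than 2 times that of Krt8 and Krt18 in 46.6%, 51.1%, 38.8% and 50.4% of them. The reverse held in 40.1%, 34.4%, 45.5% and 28.6%. The unclassed cells thus held keratins of both lineages, and no cell type was given to them.

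Basal cells with a Krt16 UMI also differed in surface genes that were looked at after the data were seen. These genes were picked because they had been seen with Krt16 in basal cells of these data, so the shares describe that choice and lend it no support. Vcam1, an adhesion receptor, was detected in 16.4%, 12.7%, 33.9% and 20.3% of Krt16-positive basal cells and in 6.02%, 4.49%, 10.9% and 6.46% of the others. Cd109, a membrane-anchored glycoprotein, was detected in 10.9%, 5.56%, 12.5% and 14.1% against 2.45%, 1.91%, 4.50% and 5.31%. Both shares were higher in the Krt16-positive cells of each of the 4 libraries, which numbered 55 to 177 a library, and no test was made over cells.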
